A study of Ipomoea batatas with 12 samples.

Results

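Drought was added to heat in 3 libraries of the sweetpotato cultivar Xuzishu 8 (DH1 to DH3), and these were compared with 3 libraries of plants under heat alone (HT1 to HT3), which makes 6 of the 12 libraries of the series. The members were chosen by the sample titles alone. HT plants stood in hot growth chambers in Hoagland solution, and DH plants stood in the same heat with PEG6000 in the solution, so heat is shared by both groups and the drought is an osmotic stress of the root medium. Field-raised plants had been moved to this hydroponic culture before the stress. Each library was made from mixed RNA of leaves and storage roots over all times of sampling, so a change in a single organ or at a single time cannot be read from it, and fewer cells of a type cannot be told apart from less RNA per cell. The 6 other libraries, used as background, hold drought without heat (DR) and plants without stress (CK), and CK plants stood in another chamber. The study speaks of biological replicates but does not say that pools came from separate plants, so p-values measure only the spread between pools.

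Plants that lose water make abscisic acid, a hormone that closes the stomata and switches on genes for protective proteins and sugars. Heat unfolds proteins and calls up heat shock proteins, chaperones that hold or refold them. Small heat shock proteins hold unfolded proteins in solution, and the larger HSP70 and HSP90 families refold them with the use of ATP. In leaves that age or starve, fat and starch stores are broken down, and the glyoxylate cycle turns the carbon of fatty acids towards sugar. Aquaporins are the channels that let water cross membranes.

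A few very abundant transcripts filled much of several libraries, and FPKM (fragments per length of transcript and size of library) is a relative measure, so each value depends on all others in its library. The 10 most abundant genes held 34.7%, 71.8% and 70.8% of the FPKM in HT1 to HT3 and 57.0%, 89.7% and 77.4% in DH1 to DH3, with a mean of 59.1% ± 21.1 (SD, n = 3) against 74.7% ± 16.5 (two-sided exact permutation p = 0.4, smallest possible 0.1). Of the most abundant IDs, which have no symbol in the tables used here, G40351 and G13073 together held a mean of 32.2% ± 12.8 (SD, n = 3) in HT and 53.1% ± 12.7 in DH, with 40.8%, 66.2% and 52.3% in DH1 to DH3. Their share did not overlap between HT and DH, at the smallest p that 3 against 3 libraries allow (exact permutation p = 0.1). The gap was narrow, as HT2 at 39.99% and HT3 at 39.16% lay just below DH1 at 40.8%. Without stress, CK2 held 40.53%, whereas CK1 and CK3 held 5.29% and 3.63%. Between 14425 and 20254 genes had an FPKM above 0 in HT, and 13653 to 22706 in DH (exact permutation p = 0.9). Read depth is not held in FPKM, so the counting error of a value is unknown. Across genes, log2(FPKM + 1) of HT2 and DH2 correlated at r = 0.95 (12295 genes that share a library and are not independent), above every pair within HT (0.61 to 0.84) or within DH (0.85 to 0.88). HT3 correlated at 0.61 to 0.71 with the other 5 libraries. The summed FPKM of 10 leaf genes of photosynthesis was 164 to 527 in HT and 48.9 to 606 in DH (exact permutation p = 0.7). That of 5 storage root genes of starch was 1.85 to 20.2 and 0.5 to 28.8 (exact permutation p = 0.7), with DPEP listed at 0 in all HT libraries, so the root share of these pools rests on low values. In CK the sums were 1807 to 8246 for the leaf genes and 33.7 to 1758 for the root genes. The symbols come from the study's tables of changed genes, so organ share cannot be told apart from a response to stress. The part of organ shares in the results was not tested.

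No gene passed the threshold when drought was added to heat. Of 12295 genes tested by limma on log2(FPKM + 1), 0 were higher and 0 lower in DH once p-values were adjusted (threshold 0.05, with a log2 difference of more than 1 asked for, 0.0% in each direction), and the lowest adjusted p was 0.421. At an unadjusted p under 0.05, 56 genes were higher in DH (0.455%) and 541 lower (4.4%). The 3 values of DH lay above all 3 of HT in 60 genes (0.488%) and below them in 1275 (10.4%). Most genes lay below zero, as the median difference of all genes was −0.65 and 19.1% of them were higher in DH.

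That excess of lower genes shrank when the libraries were brought to a common scale, and the part of the abundant transcripts in it was not tested. After median-of-ratios scaling, which divides each library by a factor taken from the genes seen in all 12, the median difference was −0.13 and 42% of genes were higher in DH. At an unadjusted p under 0.05, 195 genes were then higher (1.59%) and 187 lower (1.52%), and 389 (3.16%) and 438 (3.56%) did not overlap. At the same thresholds limma called 2 genes higher (0.0163%) and 0 lower (0.0%). All 56 genes of the higher set were in the scaled higher set too, against 186 of the 541 of the lower set. In what follows, differences are of deposited values unless called scaled, and higher or lower refers to the mean of log2(FPKM + 1). The deposited counts at unadjusted p under 0.05 also moved with single libraries, to 65 higher and 1778 lower without HT2, 52 and 315 without HT1, 14 and 699 without DH1, 162 and 184 without DH2, and 38 and 160 without DH3.

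**Figure D1:**
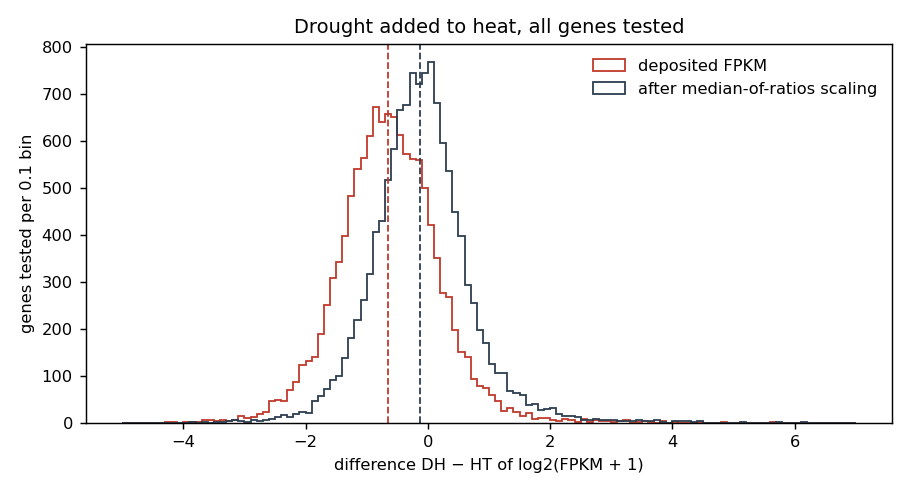
Number of genes (y axis, per bin of 0.1) by their difference DH − HT of log2(FPKM + 1) (x axis), for 12295 genes, before and after median-of-ratios scaling. Dashed lines mark the medians of −0.65 and −0.13, and the whole distribution lies further left in the deposited values.

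At3g01520, a gene of the universal stress protein family in Arabidopsis, had the lowest p of all genes. Its FPKM was 0.51, 0 and 0 in HT1 to HT3 and 254, 10.3 and 66.6 in DH1 to DH3. It was close to silent in all heat libraries and above 10 in every DH library, so the groups were wide apart. The difference was 5.66 ± 1.11 (log2, SE, limma adjusted p = 0.421, fitted on 11 libraries since DR2 lists no value). After scaling it rose by 6.15 ± 0.97 (limma adjusted p = 0.0419), and it was called under the 4 scalings run with all 12 libraries, at 6.12 to 6.25. With scaling and only the HT and DH libraries in the fit, the difference was the same and At3g01520 was not called (limma adjusted p = 0.305). Without scaling, limma called it when CK1, HT2 or DH2 was left out (adjusted p = 0.0378, 0.0292 and 0.0486).

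SHSP-2, a small heat shock protein by its symbol, appeared at a pair of loci that may share reads. The locus MSTRG.4626 had an FPKM of 0, 0 and 0.17 in HT and 45.5, 5.4 and 18.7 in DH. The locus MSTRG.38747 was listed at 0 in all 3 HT libraries and at 3.16, 1.04 and 4.81 in DH. Heat alone thus left both loci at or near 0, and each DH library held them. The differences were 4.10 ± 0.91 and 1.87 ± 0.82 (limma adjusted p = 0.761 for each, fitted on 11 libraries), and after scaling MSTRG.4626 rose by 4.49 ± 0.72 (limma adjusted p = 0.0419), a call made under the 4 scalings run with all 12 libraries. With only the HT and DH libraries in the scaled fit SHSP-2 was not called (limma adjusted p = 0.592). MSTRG.38747 did not pass after scaling (2.16 ± 0.69, limma adjusted p = 1). Among all 50592 listed genes, only MSTRG.38747 and 1 unnamed locus had an FPKM of at least 1 in every DH library and 0 in every HT library, and 2 unnamed genes showed the reverse.

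The other small heat shock proteins did not share this pattern. HSP21, a chaperone of the chloroplast, had an FPKM of 706, 49.1 and 720.3 in HT and 147, 86.9 and 833 in DH. The groups overlapped, and the difference of −0.41 ± 1.15 turned to 0.50 ± 1.08 after scaling. HSP17.4B, a class III small heat shock protein, had at MSTRG.37536 an FPKM of 249, 58.0 and 116 in HT and 134, 17.9 and 25.7 in DH, a difference of −1.55 ± 1.01 (−0.66 after scaling). The other copy of HSP17.4B (G39305, −1.43), the peroxisomal HSP15.7 (−1.13) and both loci of HSP17.5-M (−1.44 and −1.09) also had lower means and overlapped. So did HSP22, a chloroplast form by its description (−1.17). HSP21, HSP17.4B at MSTRG.37536 and both HSP17.5-M loci were fitted on 11 libraries. Of the 9 members of this list, 2 were higher and 7 lower in DH, with a median of −1.13 that was −0.23 after scaling and 0.23 without HT3. None of the 7 reached an unadjusted limma p under 0.05. Both HSP17.5-M loci stood at 1067 and 913 in HT3 and below 40 in HT1 and HT2, and without HT3 their differences were 0.41 and 0.77.

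HSP70 (G9639), described as the form of the chloroplast stroma, stood lower under drought with heat. Its FPKM was 43.0, 17.9 and 47.0 in HT and 12.6, 4.18 and 7.2 in DH. The groups did not overlap, and they did not overlap after scaling either. The difference was −2.04 ± 0.90 (limma adjusted p = 0.761), and after scaling −1.20 ± 0.70. HSP70-5 had 129.6, 22.1 and 132 in HT and 88.6, 6.58 and 16.2 in DH, a difference of −1.70 ± 1.03 with overlap (−0.83 after scaling). Both HSP70 genes kept a negative difference under each of the 28 alternatives run, from −2.47 to −0.96 and from −2.69 to −0.62, with no call. They are the lowest of the 4 members of the list of HSP70, HSP90 and calreticulin. Of these, 1 was higher and 3 lower in DH, and 2 were higher and 2 lower after scaling (medians −0.90 and −0.33).

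Most of the genes listed under abscisic acid and dehydration had higher means in DH. EDL3, an F-box protein that acts in abscisic acid signalling in Arabidopsis, had an FPKM of 285, 13.4 and 62.9 in HT and 3374, 97.3 and 741 in DH. Every DH value was far above the HT value of the same rank, though DH2 lay below HT1, and after scaling the groups did not overlap. The difference was 3.29 ± 1.19 and after scaling 4.20 ± 0.99 (limma adjusted p = 0.761 and 0.409, fitted on 11 libraries). CYP707A2, which breaks abscisic acid down, had 1.25, 0 and 1.32 in HT and 38.0, 0.8 and 6.78 in DH. Its difference was 2.24 ± 0.96 (fitted on 11 libraries), and here too DH2 was the DH library within the HT range. R40C1, listed here by its symbol although the study's tables describe it as like a cytokinesis protein, had 28.7, 7.03 and 95.2 in HT and 249, 44.4 and 471 in DH (2.62 ± 1.08), with DH2 within the HT range. RAB28, a late embryogenesis protein, and LTP1, a lipid transfer protein, overlapped between the groups (0.73 ± 0.84 and −0.17 ± 0.99, the latter 0.74 after scaling). Of the 5 list members, 4 were higher in DH and 3, R40C1 among them, at an unadjusted p under 0.05 (0.455% of all genes), with a median of 2.24 against −0.65 for all genes. The median was 1.11 without DH1 and 3.33 without DH2. After scaling all 5 were higher and the median was 2.71 against −0.13.

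Genes of raffinose synthesis, which makes protective sugars, had slightly higher means of log2 values in DH. Galactinol synthase GOLS2 makes the galactosyl donor, and RFS6 is described as a probable galactosyltransferase on sucrose. GOLS2 (G19634) had an FPKM of 11.8, 0.31 and 41.5 in HT and 33.0, 5.25 and 35.9 in DH, a difference of 1.15 ± 1.08 that was −0.23 without HT2. In the other GOLS2 copy (G45635, 0.18 ± 1.12) the mean FPKM itself was lower in DH (10.7 against 22.6), with HT3 at 59.7. This copy and both copies of RFS6 (0.58 ± 1.02 and 0.38 ± 0.93) overlapped between the groups, RFS6 at MSTRG.31046 being fitted on 11 libraries. On the log2 scale 4 of 4 members were higher in DH, deposited and scaled (medians 0.48 and 1.17). At an unadjusted p under 0.05 there were 0 of them, against 0.455% of all genes deposited and 1.59% scaled. The deposited median was −0.29 without HT2 and −0.47 without DH1.

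LOX1.5, a lipoxygenase that adds oxygen to linolenic and linoleic acid, was the remaining gene with a symbol that was separated upward at measurable levels. Its FPKM was 1.42, 1.98 and 5.76 in HT and 281, 7.27 and 58.1 in DH. All DH values lay above all HT values, by 3.82 ± 1.11 and after scaling by 4.49 ± 0.97 (limma adjusted p = 0.761 and 0.3, fitted on 11 libraries). LOX2.1, a lipoxygenase of the chloroplast on the path to jasmonate, had 1.43, 0.08 and 7.27 in HT and 11.97, 0.35 and 15.85 in DH (1.25 ± 1.06, with overlap). XTH1 (G230), a wall enzyme, was also separated, but at 0 in HT and 0.1, 0.14 and 0.16 in DH.

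Among regulators, WRKY6, a transcription factor of senescence and phosphate use in Arabidopsis, had 3.52, 0.07 and 4.34 in HT and 67.9, 2.31 and 10.4 in DH (2.22 ± 1.02). TGA6, a bZIP factor of defence, had 0, 0 and 1.39 in HT and 9.88, 0.64 and 7.01 in DH (1.97 ± 0.91). In both, fitted on 11 libraries, DH2 lay within the HT range, and after scaling the groups did not overlap. HSF24, a heat stress factor, was lower in mean, with 18.6, 3.33 and 33.5 in HT and 9.46, 1.78 and 2.91 in DH (−1.56 ± 0.93). Of 14 regulators tested, 6 were higher and 7 lower, where 19.1% of all genes were higher. At an unadjusted p under 0.05 there were 2 higher and 0 lower, against 0.455% and 4.4% of all genes.

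Among enzymes that break down stores and walls, several had higher means in DH. BAM1, a β-amylase that cuts maltose from starch, has 3 copies in the list. BAM1 (G29406) had an FPKM of 16.7, 2.0 and 36.6 in HT and 576, 12.3 and 52.7 in DH, a difference of 2.56 ± 1.18 (3.43 after scaling). DH1 stood far above the other DH values, and without it the difference was 1.09. The copies G15055 and MSTRG.8438 gave 1.75 ± 1.25 and 2.30 ± 1.24 (the latter on 11 libraries), and the copies may share reads. The starch list, which also holds genes of starch synthesis, had 5 of 6 tested members higher and a median of 1.36 (2.18 after scaling, 0.73 without DH1). The BAM1 copies made up 3 of those 5. The others were AGPS1, a gene of starch synthesis (0.98 ± 1.27), and PHO1, a starch phosphorylase (0.31 ± 1.06). BMY1, another β-amylase, was at −0.11 ± 1.27.

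ICL2, isocitrate lyase, and MLS, malate synthase, are the enzymes particular to the glyoxylate cycle. ICL2 (G23318) had an FPKM of 155, 7.21 and 281 in HT and 1395, 76.6 and 686 in DH, a difference of 2.56 ± 1.25 (3.48 ± 1.10 after scaling, limma adjusted p = 0.761 and 1). It was higher in each DH library than in the HT library of the same rank, with overlap through DH2, and without HT2 the difference was 1.0. MLS had 2576, 138 and 451 in HT and 1752, 116 and 1265 in DH, which leaves 0.23 ± 1.14 and no separation, and −0.76 without HT2 or −0.50 without DH1. ACX2, an acyl-CoA oxidase of fatty acid breakdown, had 108, 10.1 and 52.7 in HT and 450.4, 24.4 and 149 in DH (1.57 ± 1.08). All 4 members had a higher mean in DH, with a median of 1.52 (2.07 after scaling, 0.67 without DH1 and 0.83 without HT2). None had an unadjusted p under 0.05 before scaling and 2 had after it. Of all genes, 0.455% were higher at that level before scaling and 1.59% after it. HPD, which breaks down tyrosine, was at 0.62 ± 1.02.

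The list of chlorophyll genes had 3 higher and 5 lower of 8 members and a median of −0.30 (0.10 after scaling). CRD1, a cyclase of chlorophyll synthesis, was at −1.16 ± 1.10 and −0.95 ± 1.05 in the copies G16398 and G16412, and the pheophorbide oxygenase PAO, an enzyme of chlorophyll breakdown, was at 1.16 ± 0.95 and 0.61 ± 0.96. None of these copies reached an unadjusted limma p under 0.05, and each overlapped between HT and DH.

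The primers of the study's own RT-qPCR show which transcripts were meant to be followed, and those of ICL2 and of HSP70-5 and BXL1 are given here because these genes stood higher and lower in DH. The list of primers holds the same pair for HSP70-5 (G13246) and BXL1 (G14317), which encode unrelated proteins. The sequences are copied as that list gives them.
ICL2 forward: cgtacgatacggtgcctaataa
ICL2 reverse: cctacctgctcatgttcattct
HSP70-5 and BXL1 forward: gcgattcagttggcgtaatg
HSP70-5 and BXL1 reverse: taaggcccacagtccaaatc

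Chitinases, which cut the chitin of fungal walls, had high but scattered values. CHIT1B (G47455) had an FPKM of 22.9, 2.53 and 87.6 in HT and 721, 14.4 and 532 in DH. The copy G27895 had 47.1, 4.01 and 194 in HT and 1148, 17.6 and 699.9 in DH, and the copies may share reads. In both, DH1 and DH3 stood above every HT library and DH2 within them, for differences of 3.21 ± 1.25 and 2.77 ± 1.31 (limma adjusted p = 0.761 for both). After scaling they were 4.09 and 3.67, and without HT2 1.98 and 1.35. The chitinase EP3 was at −0.78 ± 0.99, fitted on 11 libraries.

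Hydrolases of wall polysaccharides went in both directions. gluA, a β-glucosidase by its description, had 33.0, 3.32 and 22.5 in HT and 666, 20.6 and 85.4 in DH (2.83 ± 1.15). MAN2, a mannanase, had at MSTRG.33887 39.3, 0.86 and 20.9 in HT and 553, 13.1 and 76.8 in DH (2.84 ± 1.22, fitted on 11 libraries). Both overlapped through DH2 and were separated after scaling (3.72 and 3.74). Another MAN2 locus (MSTRG.33886), also fitted on 11 libraries, was at 1.99 ± 1.37 (2.91 after scaling) and overlapped before and after scaling. BXL1, a β-xylosidase, was lower in mean at G14317, with 28.3, 0 and 90.9 in HT and 1.88, 0 and 0.73 in DH (−3.03 ± 1.14). BGAL1, a β-galactosidase, had 20.4, 0.2 and 82.4 in HT and 2.22, 0 and 1.14 in DH (−2.76 ± 1.09). HT2 was as low as DH in both genes, and after scaling the differences were −2.54 and −2.27. Without HT2 limma called both lower, BXL1 by −4.93 ± 0.99 and BGAL1 by −4.47 ± 0.99 (adjusted p = 0.0198 and 0.0292). The 2 other copies of BXL1 were at −2.02 ± 1.25 and −1.85 ± 0.82. The genes G35534 and G9855 share the symbol BACOVA_02659 and went opposite ways, at −1.15 ± 0.93 and 1.35 ± 0.96. In G35534 all DH values lay below all HT values, and the groups overlapped after scaling (−0.28). Over the 10 hydrolases tested, 5 were higher and 5 lower, with a median of −0.16 that was 0.57 after scaling and 0.17 without HT3.

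**Figure D2:**
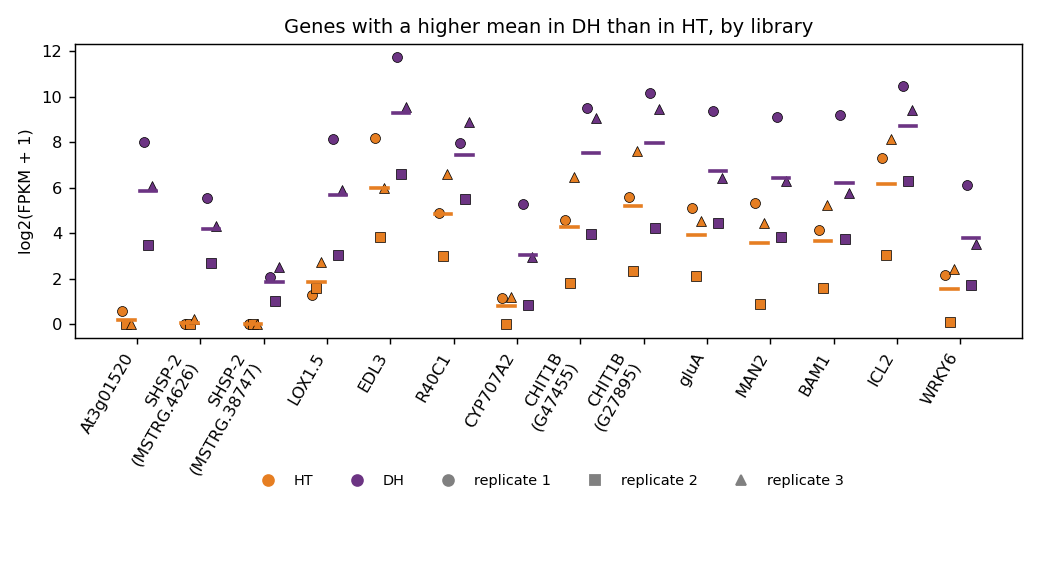
log2(FPKM + 1) (y axis) of 14 genes with a higher mean in DH, with 1 point for each HT and DH library, the symbol giving its replicate number, and bars for group means. DH2 is the lowest DH library in all 14 genes shown and reaches into the HT range in 10, whereas At3g01520, both SHSP-2 loci and LOX1.5 are separated.

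Aquaporins had lower means in DH. PIP2-7, a water channel of the plasma membrane, had an FPKM of 46.9, 42.1 and 64.5 in HT and 28.3, 0.31 and 5.59 in DH. All DH values lay below all HT values, before and after scaling, and the difference of −3.02 ± 1.64 did not pass (limma adjusted p = 0.761). The SE comes from all 4 groups, and the 3 CK libraries of this gene ran from 7.63 to 11119. TIP1-1, a water channel of the vacuole, had 64.2, 1.51 and 6.77 in HT and 1.64, 0 and 0.93 in DH (−2.65 ± 1.16), separated after scaling. TIP1-3 was at 0 in 2 HT libraries and 1 DH library (−0.33 ± 1.08), and it turned positive under quantile normalization and with smaller pseudocounts. The list median, which is the value of TIP1-1, was −2.65, and −2.18 after scaling. Without HT1, where TIP1-1 stood highest, it was −1.36.

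Other genes with a symbol had lower means in DH, and of the 9 separated ones given next 1 stayed separated after scaling. Downward separation of the deposited values was found in 24 of the 203 tested genes with a symbol. It was found in 10.4% of all genes tested, and in 3.56% after scaling. 4CL3, 4-coumarate:CoA ligase at the entry to phenolics, had 40.5, 8.22 and 14.4 in HT and 3.15, 3.41 and 6.27 in DH (−1.82 ± 0.93). SAHH, which clears S-adenosylhomocysteine after methyl transfer, had 12.6, 1.32 and 2.66 in HT and 1.26, 0.26 and 0.23 in DH (−1.68 ± 0.88). SHM4, a serine hydroxymethyltransferase, had at G8891 189.8, 59.1 and 54.8 in HT and 26.6, 37.9 and 28.7 in DH (−1.44 ± 0.91). Another SHM4 locus (G8870) overlapped between the groups, at −0.25 ± 1.09 and 0.63 after scaling. 4CL3, SAHH and SHM4 at G8891 had all DH values below all HT values. Only SAHH kept that after scaling (−1.18 ± 0.69, against −0.97 for 4CL3 and −0.53 for SHM4 at G8891).

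The same held for CTL1, a chitinase-like protein of cellulose deposition (−1.74 ± 0.97), CHI, the chalcone isomerase of flavonoids (−1.56 ± 1.0), CP29B, an RNA-binding protein of the chloroplast (−1.46 ± 1.02), DCR, an acyltransferase of the cuticle (−1.31 ± 0.92, fitted on 11 libraries), CYP75B2, the flavonoid 3′-hydroxylase (−1.15 ± 0.92), and PMEU1, a pectin methylesterase (−1.15 ± 0.87). Each was separated in the deposited values, none at an unadjusted limma p under 0.05, and overlapped after scaling. The CP29B value is that of G11444, and another CP29B locus (G11423) overlapped in the deposited values too (−1.35 ± 1.02, −0.59 after scaling). CHI, CTL1 and DCR were highest in HT3, and without it their differences were −0.48, −0.76 and −0.40. VTC2, the enzyme that commits GDP-galactose to ascorbate, had at G15160 10.85, 0.72 and 311.5 in HT and 5.05, 0.5 and 2.5 in DH (−2.55 ± 1.31), and without HT3 the difference was −0.51. The second copy of VTC2 (G16532) was at −2.37 ± 1.10, TUBA3, an α-tubulin (G2000), at −2.27 ± 1.11, XTH9, a xyloglucan transferase, at −1.85 ± 0.99, the cellulase KOR at −1.43 ± 0.96 and the auxin importer AUX1 at −1.42 ± 1.01, all with overlap. After scaling these 5 differences were −1.68, −1.58, −1.05, −0.54 and −1.01.

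**Figure D3:**
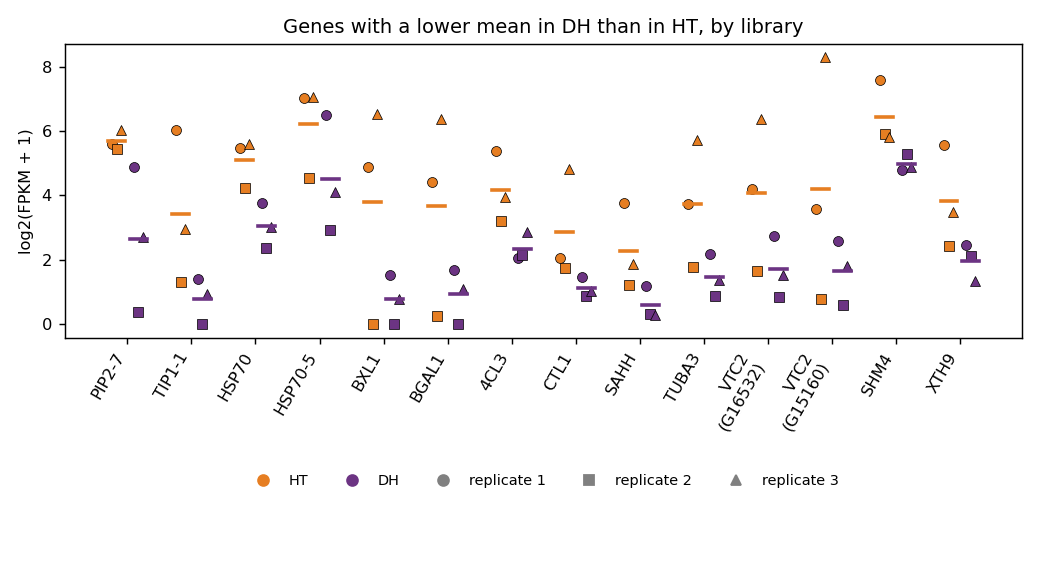
log2(FPKM + 1) (y axis) of 14 genes with a lower mean in DH, with 1 point for each HT and DH library and bars for group means. HT2 is as low as the DH libraries for BXL1 (G14317) and BGAL1, and PIP2-7, HSP70, 4CL3, CTL1, SAHH and SHM4 are separated.

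Over the 24 lists, 130 of 142 members were tested, of which 51 were higher and 78 lower in DH, 13 and 6 of them at an unadjusted p under 0.05 (0.455% and 4.4% of all genes) and 0 called. The lists were drawn from tables in which the study had chosen genes partly for their change in DH against CK, so their direction is not independent of the DH libraries. Of the genes in its table for that comparison, 41 of 55 raised ones were higher in DH than in HT, and 7 of 96 lowered ones, against 19.1% of all genes. After scaling the numbers were 47 and 23, against 42% of all genes. List medians after scaling ran from −2.18 for aquaporins to 3.67 for chitinases, and those of shikimate entry, phenylpropanoid entry, flavonoids, and expansins with xyloglucan transferases, which lay between −0.81 and −0.33, came to between −0.19 and −0.06.

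**Figure D4:**
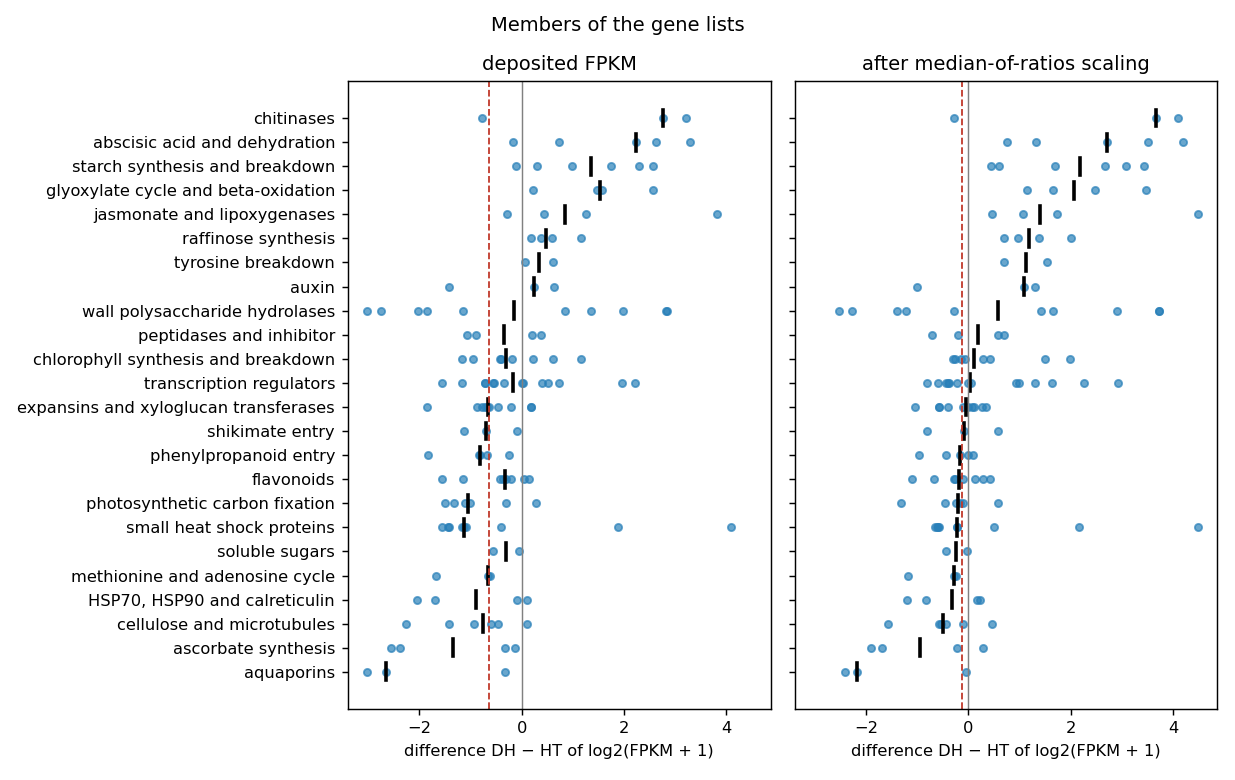
Differences DH − HT of log2(FPKM + 1) (x axis) of the tested members of 24 gene lists (rows), as points with the list median as a bar, before (left) and after (right) median-of-ratios scaling. The dashed line is the median of all genes (−0.65 and −0.13), and chitinases, abscisic acid and dehydration, starch, and the glyoxylate cycle lie to its right in both panels, with aquaporins to its left.

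A drought without heat was part of the series too, and DR against CK shares no library with DH against HT. The p-value that picked the genes below takes its spread from all 4 groups, so CK and DR values entered that choice. A match with DR is therefore not independent of the choice. Genes near 0 in CK also have little room to be lower in DR. Of the 56 genes higher in DH at an unadjusted p under 0.05, 55 had a higher mean in DR than in CK, against 54.1% of all genes tested, and 48 of them by more than 1 on the log2 scale, against 14.8%. Their median difference was 2.86 under heat and 3.16 without it. After scaling it was 172 of 195 genes, against 48.1% of all. The genes lower in DH showed no such match, as 256 of 541 were lower in DR (45.8% of all genes were) and 96 of 187 after scaling (51.9%). Over all 12295 genes the differences correlated at r = 0.18 (Spearman 0.09), a description across genes that share libraries and are not independent. CK differed from DR in chamber as well as in drought, and these cannot be told apart.

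Most of the 56 genes have no symbol, and the levels of 4 with a symbol are given here. SHSP-2 at MSTRG.4626 was listed at 0 in all CK libraries and at 238 and 405 in DR1 and DR3, 8.28 ± 1.01 higher in DR than in CK on the log2 scale (limma adjusted p = 0.000145). EDL3 had 1.33, 0.73 and 0.57 in CK and 357 and 697 in DR1 and DR3 (8.08 ± 1.33), and CHIT1B (G47455) had 0 in CK and 698, 767 and 1783 in DR (9.95 ± 1.25). At3g01520 had 10.97, 0.28 and 0 in CK and 29.6 and 12.5 in DR (3.03 ± 1.24). For the first 3 genes the DR − CK difference was larger than the DH − HT difference, and for At3g01520 it was smaller, and the interactions of −4.19, −4.79, −6.73 and 2.63 did not pass (limma adjusted p = 0.654, 0.804, 0.356 and 0.901). DR2 lists no value for SHSP-2, EDL3 or At3g01520. Under heat alone EDL3 and CHIT1B already stood above their CK levels, while SHSP-2 and At3g01520 did not.

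Whether drought acted differently under heat was tested for each gene as (DH − HT) − (DR − CK). No gene passed (0 of 12295, 0.0%, lowest adjusted p = 0.198), and 647 genes (5.26%) had an unadjusted p under 0.05, 82 above and 565 below zero, which after scaling were 632 genes, 308 above and 324 below. HSP21 had the interaction furthest from zero of the genes named, with 1.13, 0 and 0 in CK, 72.1 and 422 in DR1 and DR3, and the high HT and DH values above. It was higher in DR than in CK by 7.10 ± 1.28 (limma adjusted p = 0.00529), the difference under heat was −0.41, and the interaction was −7.51 ± 1.72 (limma adjusted p = 0.279, fitted on 11 libraries). Malate synthase MLS had 6.1, 9.56 and 21.5 in CK and 931, 1524 and 1408 in DR, for 6.73 ± 1.14 without heat, 0.23 under heat and an interaction of −6.50 ± 1.61 (limma adjusted p = 0.345). RAP2-3, an ethylene response factor, had 8.56, 17.9 and 7.71 in CK, 836, 363 and 603 in DR, 827, 1369.7 and 186 in HT and 1922, 395 and 624 in DH. It was higher in DR than in CK (5.61 ± 1.0, limma adjusted p = 0.00422) and overlapped between HT and DH (0.39 ± 1.0), with an interaction of −5.22 ± 1.41 (limma adjusted p = 0.356). In these 3 genes the HT libraries already held the level of DR or more in at least 1 library, and the interaction did not pass after scaling either (adjusted p = 0.48 for HSP21 and MLS and 0.693 for RAP2-3).

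**Figure D5:**
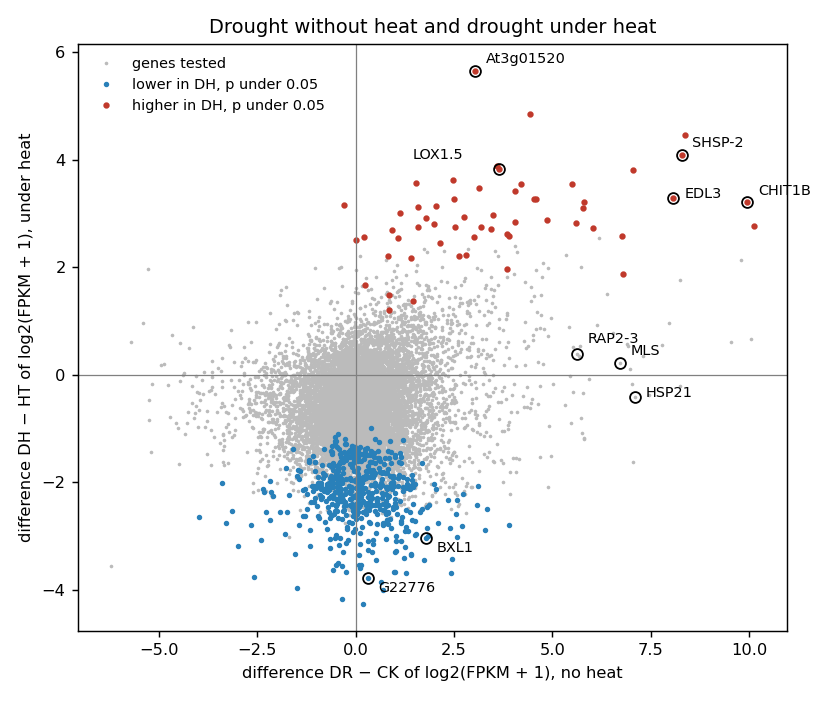
Difference DH − HT of log2(FPKM + 1) under heat (y axis) against DR − CK without heat (x axis), for 12295 genes. The 56 genes higher in DH at an unadjusted p under 0.05 lie to the right of zero except 1, the 541 lower ones lie on both sides, and HSP21, MLS and RAP2-3 lie far right near zero height.

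Genes without a symbol were among those furthest apart. G19613 had an FPKM of 86.5, 5.3 and 55.8 in HT and 5005, 129 and 1182 in DH, all above HT (4.86 ± 1.23). MSTRG.21000 had 3.88, 0 and 0.77 in HT and 172, 5.44 and 80.9 in DH (4.45 ± 1.07, fitted on 11 libraries), and limma called it under 2 of the 4 scalings. In the other direction, G22776 had 37.7, 0.04 and 62.1 in HT and was listed at 0 in all DH libraries (−3.77 ± 1.03). Without HT2 and DH2 limma called G22776 lower (−5.63 ± 1.02, adjusted p = 0.0295). G39971 had 118, 9.68 and 81.0 in HT and 9.68, 1.56 and 1.02 in DH, where DH1 tied with HT2 (−3.63 ± 1.06).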

How the data were processed

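The authors trimmed the reads (cutadapt 1.9 per the labels), aligned them with HISAT2 (2.0.4) and estimated transcripts with StringTie (1.3.4d). FPKM for each gene were deposited, 1 table a library. These values are already corrected for length and library size, so no count model was run here, although DESeq2 and edgeR are named for the authors' own tests. The reads were aligned to a published sweetpotato genome whose build name is not given in the sources used here, and whole reads were not recovered. The DR2 table lists 1519 fewer loci, and 1087 of the tested genes were fitted without it.

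Tested were the 12295 genes that reached FPKM 1 in 3 or more of the 12 libraries. The test was limma 3.58.1 in R 4.3.3 (trended eBayes, two-sided) on log2(FPKM + 1), a scale that understates the change of low genes, with all 4 groups in 1 fit and no covariate. Benjamini-Hochberg adjustment ran over all 12295 genes. The fit was also run on simulated data with independent noise around 1 mean per gene. These held no shift of whole libraries, so they do not test the fit under the scale differences seen here. Median-of-ratios factors came from 6414 genes. Per-library measures were compared by exact permutation (Python 3.11.15, scipy 1.17.1). Groups came from the titles.

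Symbols come from the study's tables of changed genes and cover 203 of the tested genes, and near-identical copies in this polyploid may share reads. Members, the 24 lists and the tests were chosen with earlier results of these data known. Named were the genes with a symbol that separated furthest (at most 10 each way), the 2 of lowest p each way, any gene called, at most 3 list members of largest difference, and the whole lists of small heat shock proteins, abscisic acid and raffinose. MLS, RAP2-3, BGAL1, G19613, MSTRG.21000, the second PAO copy and further BXL1 copies were named after their values were seen. So were BACOVA_02659, AGPS1, PHO1, BMY1, CRD1 at G14909, SHM4 at G8870, CP29B at G11423 and MAN2 at MSTRG.33886. These were not followed under the alternatives. Alternatives covered scaling, pseudocount, filters, the libraries in the fit, array weights, the replicate number as a block and each library left out.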

Additional observations from a re-analysis of the deposited data

How the results depend on the processing

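The counts of calls depended on scaling and on single libraries. Against 0 higher and 0 lower genes, limma called 2 higher after median-of-ratios scaling, 3 after upper-quartile scaling, 2 after quantile normalization, 3 after scaling without the most abundant genes and 1 with array weights. It called 132 higher and 130 lower with scaling and array weights together, and 2 and 2 without HT2 and DH2. Array weights ran from 0.24 for CK3 to 8.21 for DH3, and their fit stopped before it converged. With each library left out in turn, 0 to 3 genes were called higher and 0 to 52 lower, the highest counts both without HT2. The interaction had 2 calls with a pseudocount of 0.1, 5 with 0.01, 478 with array weights, 419 with scaling and array weights, 10 without HT2 and DH2 and 0 to 50 with libraries left out in turn. Other filters, a fit of HT and DH alone (deposited or scaled, the latter added after the data were seen) and no threshold on the difference left both counts at 0. With a minimum FPKM of 0.5, 6 genes were seen in DH alone and 14 in HT alone, against 2 each.

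The replicate numbers paired the libraries only in part. Same-numbered HT and DH libraries correlated in their deviations at 0.16, 0.38 and -0.00. HT1 and HT2 correlated best with the DH library of the same number, and HT3 with DH1 (0.19). The replicate block gave 0 calls in DH against HT in each direction and 0 for the interaction, with 80 higher and 1268 lower genes at an unadjusted p under 0.05. With the block, the lowest limma adjusted p for DH against HT was 0.064, against 0.421 without it.

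Of the genes named and followed under the alternatives, those whose direction turned had no call in either direction. LTP1 turned to 0.74 with median-of-ratios scaling (also with HT and DH alone), 0.96 with upper-quartile scaling, 0.45 with quantile normalization, 0.61 with scaling without the most abundant genes, 0.86 with array weights and 2.12 with both. HSP21 turned to 0.50, 0.72, 0.19, 0.37, 0.94 and 0.35 under the same settings. With scaling and array weights together HSP22 was at 0.36, HSP15.7 at 0.64, HSP17.4B (G39305) at 0.24 and the HSP17.5-M loci at 1.08 and 1.38 (0.18 and 0.39 with array weights alone). Array weights also turned RAB28 (-0.48), RAP2-3 (-0.31) and CRD1 (0.29 at G16398, 0.63 at G16412), and CRD1 (G16412) was at 0.14 with upper-quartile scaling and 0.051 with scaling and array weights. GOLS2 (G45635) was at -0.58 without HT2 and DH2, TIP1-3 at 0.031 after quantile normalization and 0.22 and 1.23 with pseudocounts of 0.1 and 0.01, and PMEU1 at 0.0021 after quantile normalization. With each library left out in turn, the ranges were -0.18 to 1.24 for RAB28 (MSTRG.10419), -0.80 to 0.60 for LTP1 (G25650), -0.23 to 2.28 for GOLS2 (G19634), -1.27 to 1.61 for GOLS2 (G45635), -0.65 to 1.63 for RFS6 (G41031), -0.68 to 1.59 for RFS6 (MSTRG.31046), -0.45 to 0.99 for RAP2-3 (G11018), -1.69 to 0.26 for HSP21 (MSTRG.27569), -2.33 to 0.18 for HSP22 (G36033), -2.78 to 0.41 for HSP17.5-M (MSTRG.30591), -2.45 to 0.77 for HSP17.5-M (MSTRG.30592), -0.76 to 1.45 for MLS (G42670), -0.25 to 1.54 for HPD (G38888) and -0.96 to 0.89 for TIP1-3 (G7059). The cause of these turns was not tested. The top 10 share differed by 3.36 to 24.4 percentage points and the number of genes above 0 by -3318.5 to 1208 with libraries left out in turn. Depth behind single values is unknown, and 3 pools a group limit every test.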
